A study of Mus musculus with 11 samples.

Results

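The D cyclins, their partner kinases CDK4 and CDK6, the CDK inhibitors and the retinoblastoma gene control entry into the cell cycle, and 10 genes of this pathway were followed through bulk RNA-seq of pubertal mouse mammary epithelium. They were chosen by symbol (Ccnd1, Ccnd2, Ccnd3, Cdk4, Cdk6, Cdkn1a, Cdkn1b, Cdkn2c, Cdkn2a and Rb1) among 27179 genes counted, of which 17370 were tested. All 10 passed the filter on low counts, which asked for at least 2 libraries above a low level. Of the 10, 8 reached that level in all 11 libraries, Cdk6 in 9 and Cdkn2a in 5, of which 3 were luminal TEB libraries. The samples came from mammary glands of C57BL/6 females aged 5 weeks that carried the E-cadherin-GFP reporter, an allele shared by every group. Terminal end buds (TEBs), the growing tips of the ducts, and the ducts behind them were microdissected under the GFP signal. Epithelial cells depleted of blood and endothelial cells were then sorted by GFP, with dim cells taken as basal and bright cells as luminal. There were 3 libraries of basal duct, 3 of basal TEB, 2 of luminal duct (replicates 1 and 3) and 3 of luminal TEB, each from at least 2 pooled mice, so no value belongs to 1 animal. A luminal population sorted in this way still mixes luminal progenitors and mature luminal cells.

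As background, mitogen signals raise the D cyclins, which bind CDK4 or CDK6 and start the phosphorylation of the retinoblastoma protein, Rb. Phosphorylated Rb releases the E2F factors, which switch on genes of DNA replication. The INK4 inhibitors, among them p16Ink4a (from Cdkn2a) and p18Ink4c (from Cdkn2c), bind CDK4 and CDK6 and keep the D cyclins off, whereas the Cip/Kip inhibitors p21 (Cdkn1a) and p27 (Cdkn1b) act mainly on CDK2 complexes. Cyclin D1 is well known in mammary gland as a gene needed for full lobuloalveolar growth in pregnancy, and its gene is amplified in part of human breast cancers. Much of this pathway is set at the protein level, by phosphorylation and degradation, which RNA counts do not measure.

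In the mm10 assembly, all 10 are protein-coding genes. The cyclin genes lie at chr7:144929931-144939831 (Ccnd1), chr6:127125162-127152188 (Ccnd2) and chr17:47505051-47599689 (Ccnd3). The kinase genes lie at chr10:127063535-127067288 (Cdk4) and chr5:3341004-3531008 (Cdk6), and Rb1 lies at chr14:73192858-73325951. The inhibitor genes lie at chr17:29090979-29100722 (Cdkn1a), chr6:134920401-134925525 (Cdkn1b), chr4:109660876-109666756 (Cdkn2c) and chr4:89274473-89294619 (Cdkn2a). Counts were made over exons of a gene and the library kit does not mark strand, so reads from overlapping genes cannot be assigned with certainty. Lpar6 lies within the span of Rb1, Bysl overlaps Ccnd3, LTO1 overlaps the end of Ccnd1, 9330179D12Rik overlaps Ccnd2, and Tspan31 overlaps Cdk4. Ccnd3 also has a processed pseudogene that may share reads with it.

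Promoter sequences from RefSeq (GRCm38.p6, the assembly of mm10) were available for 7 of the 10 genes, in 11 entries. Those of Cdkn2a and of the upstream Cdkn1a start are given here. Each is the 250 bases upstream of the first transcribed base, 5′ to 3′ on the gene's strand. Motifs searched for this pathway were words bound by E2F (TTTCCCGC, TTTCGCGC, TTTGCCGC and TTTGGCGC), the GC box (GGGCGG) and the p53 full site, a pair of adjacent decamers with at most 1 mismatch. Each was searched on both strands, as were the TATA box and the CCAAT box, which are not described further. Of the 11 entries, 1 held an E2F word, 7 held a GC box and 1 held a p53 full site. Cdkn2a is shown because its 2 start sites, 12427 bases apart, open transcripts for different proteins, p19Arf from the upstream and p16Ink4a from the downstream start, which the gene counts add together. Capitals mark an E2F word and GC boxes in the Cdkn2a entries, and the p53 full site in the upstream Cdkn1a entry.
Cdkn2a, upstream start, chr4:89294620-89294869, minus strand: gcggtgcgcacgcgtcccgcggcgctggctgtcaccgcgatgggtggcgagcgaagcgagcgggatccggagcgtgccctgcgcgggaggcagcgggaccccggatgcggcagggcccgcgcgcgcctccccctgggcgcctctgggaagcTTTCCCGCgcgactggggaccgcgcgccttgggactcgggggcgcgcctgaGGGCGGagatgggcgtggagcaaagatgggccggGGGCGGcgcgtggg
Cdkn2a, downstream start, chr4:89282193-89282442, minus strand: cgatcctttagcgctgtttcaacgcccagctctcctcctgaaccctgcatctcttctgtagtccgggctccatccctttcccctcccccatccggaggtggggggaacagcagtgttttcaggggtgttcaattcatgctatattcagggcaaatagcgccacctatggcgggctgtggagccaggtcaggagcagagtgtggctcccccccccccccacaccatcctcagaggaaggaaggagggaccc
Cdkn1a, upstream start, chr17:29090729-29090978, plus strand: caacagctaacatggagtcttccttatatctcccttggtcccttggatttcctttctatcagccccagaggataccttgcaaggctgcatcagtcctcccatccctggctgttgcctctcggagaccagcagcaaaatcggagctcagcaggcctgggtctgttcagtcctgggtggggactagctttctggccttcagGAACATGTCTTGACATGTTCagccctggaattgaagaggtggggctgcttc

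The upstream Cdkn2a window held the word TTTCCCGC from 99 to 92 bases before the start and GC boxes at 48 to 43 and 14 to 9 bases, with a GC content of 78.4%. The downstream Cdkn2a window held neither motif and had a GC content of 60%. Cdkn1a, whose protein p21 is a classical product of p53 activation, held the p53 full site from 51 to 32 bases before its upstream start. The window of its downstream start, at chr17:29093769, held no p53 full site and had GC boxes at 104 to 99 and 46 to 41 bases. Which Cdkn1a start was used cannot be read from the gene counts. Among 32851 mouse promoter windows of the same length, 1.86% held an E2F word, 32.7% held a GC box and 0.0457% (15 windows) held a p53 full site. These are matches of letters, and no binding was measured.

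Library totals ran from 27989137 to 49221436 counts. Genes of the mitochondrial chromosome took 4.34% to 37.5% of a library, with the highest shares in basal TEB replicate 1 (37.5%) and luminal duct replicate 3 (28.5%). The labelled cell types were checked by their markers. The summed level of Krt5, Krt14, Trp63 and Acta2 was 9887 to 11891 CPM (counts scaled to the library size after TMM) in basal duct, 3960 to 6054 in basal TEB and at most 142.3 in any luminal library. The summed level of Krt8, Krt18, Krt19 and Elf3 was 10063 to 15511 CPM in luminal libraries and 252.7 to 554.0 in basal libraries. Luminal duct replicate 3 stood apart from replicate 1, with 170.5 against 1.66 CPM of immune markers, 249.7 against 6.03 of fibroblast markers and 142.3 against 60.0 of basal markers. These are sums, and in replicate 3 the basal marker Trp63 (0.206 against 3.44 CPM) and the immune marker Csf1r (0 against 1.21 CPM) were lower. Basal duct replicate 2 stood apart from replicates 1 and 3, with 145.9 against 7.54 and 14.9 CPM of endothelial markers, 184.0 against 0.479 and 10.7 of adipocyte markers and 73.8 against 11.7 and 9.95 of immune markers. Its adipocyte sum was almost all Fabp4 (178.7 CPM), with 5.29 CPM of Cidec and 0 counts of Adipoq and Plin1.

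Ccnd1, which encodes cyclin D1, was higher in TEBs than in ducts of basal cells and far higher in luminal than in basal cells. In basal duct the 3 libraries had 46.5, 62.9 and 77.8 CPM, and in basal TEB they had 264.3, 168.6 and 188.5 CPM. Luminal duct had 440.4 and 494.8 CPM, and luminal TEB had 894.3, 920.1 and 919.5 CPM. The 4 groups thus formed an ascending order from basal duct to luminal TEB without any overlap between neighbours. In basal cells the TEB level was 3.32-fold that of ducts, a log2 fold change of 1.73 (SE 0.226, 95% interval 1.24 to 2.23, FDR = 0.00374, the Benjamini-Hochberg adjusted p of edgeR's quasi-likelihood test over all genes). Ccnd1 was the only one of the 10 genes to pass the threshold of FDR 0.05 there, in a comparison in which 1.32% of all genes tested passed. Leaving out basal duct replicate 2 gave 1.74 on the log2 scale (FDR = 0.0215). Ccnd1 passed in each of the 21 alternative fits that changed the scaling, the filter, the test, the block or the libraries. In bulk samples fewer cells that express a gene and less RNA per cell cannot be told apart. The luminal marker sum was lower in basal TEB (252.7 to 280.4 CPM) than in basal duct (453.5 to 554.0 CPM). Whether admixed luminal cells had a part in the Ccnd1 difference was not tested.

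In luminal cells Ccnd1 was 1.95-fold higher in TEBs (log2 fold change 0.96, SE 0.253, 95% interval 0.41 to 1.52), which did not pass the threshold (FDR = 0.0850), although the 3 TEB libraries lay above both duct libraries. Ccnd1 did pass in 5 of the 21 alternative fits. They were DESeq2 (adjusted p = 0.0147), limma voom (adjusted p = 0.0153), edgeR's likelihood ratio test (FDR = 0.0172), a fit of the 2 groups alone (FDR = 0.0405) and the fit without basal TEB replicate 1 (FDR = 0.0482). Basal cells had less Ccnd1 than luminal cells in both structures. The log2 fold change was -2.91 in ducts (SE 0.249, FDR = 8.72e-06) and -2.14, a 4.40-fold difference, in TEBs (SE 0.229, FDR = 2.83e-05). The read counts of LTO1, which overlaps the end of Ccnd1, stayed between 6.63 and 17.2 CPM in every library.

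Ccnd2, which encodes cyclin D2, had the opposite distribution and was found mostly in basal cells. Its level was 251.1, 148.2 and 266.5 CPM in basal duct and 397.6, 498.9 and 391.1 CPM in basal TEB. Luminal duct had 0.273 and 5.30 CPM, and luminal TEB had 0.381, 0.610 and 0.636 CPM. All basal libraries were thus above all luminal libraries, and luminal duct replicate 3 had the highest of the luminal values. The basal level was 83.5-fold higher in ducts (log2 fold change 6.38, SE 0.907, FDR = 0.000319) and 782-fold higher in TEBs (log2 fold change 9.61, SE 0.871, FDR = 7.71e-06, both by edgeR). The value for ducts depended on 1 library: the log2 fold change was 9.65 without luminal duct replicate 3 and 5.39 without luminal duct replicate 1. The summed basal markers and Ccnd2 were both higher in luminal duct replicate 3 than in the other luminal libraries. Of the markers, Krt5, Krt14 and Acta2 were highest there (20.3, 18.8 and 103.1 CPM). Trp63 was lowest there, at 0.206 CPM against 3.44 in replicate 1. What part other cells had in the Ccnd2 value was not tested.

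Between TEBs and ducts of basal cells, the 3 TEB libraries of Ccnd2 all lay above the 3 duct libraries. The 1.93-fold difference had a log2 fold change of 0.95 with an SE of 0.590 and did not pass (95% interval -0.34 to 2.24, FDR = 0.493). The spread behind this SE was estimated over all 4 groups. The SD of Ccnd2 in log2 CPM was 0.466 in basal duct, 0.196 in basal TEB and 2.87 in luminal duct. The difference between basal TEB and basal duct passed with limma voom alone (adjusted p = 0.0190), in a log2 fold change of 1.00. Basal duct replicate 2 had the lowest basal level of Ccnd2, and without it the log2 fold change was 0.73 (FDR = 0.759). In luminal cells the log2 fold change of Ccnd2 was -2.28 (SE 0.773, FDR = 0.168) and had no stable direction. It was -3.27 (FDR = 0.000833) without luminal duct replicate 1 and 0.99 without luminal duct replicate 3.

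Ccnd3, which encodes cyclin D3, had the closest group means of the D cyclins. It had 43.4, 43.6 and 37.1 CPM in basal duct, 9.81, 46.8 and 34.4 in basal TEB, 47.6 and 57.3 in luminal duct and 51.6, 48.0 and 54.5 in luminal TEB. Basal TEB replicate 1, the library with the highest mitochondrial share, was the lowest, and the other basal TEB libraries were near the remaining groups. None of the 4 comparisons passed (FDR between 0.204 and 0.999 by edgeR), and the interval for basal TEB against basal duct, -1.32 to 0.44 on the log2 scale, was wide.

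**Figure D1:**
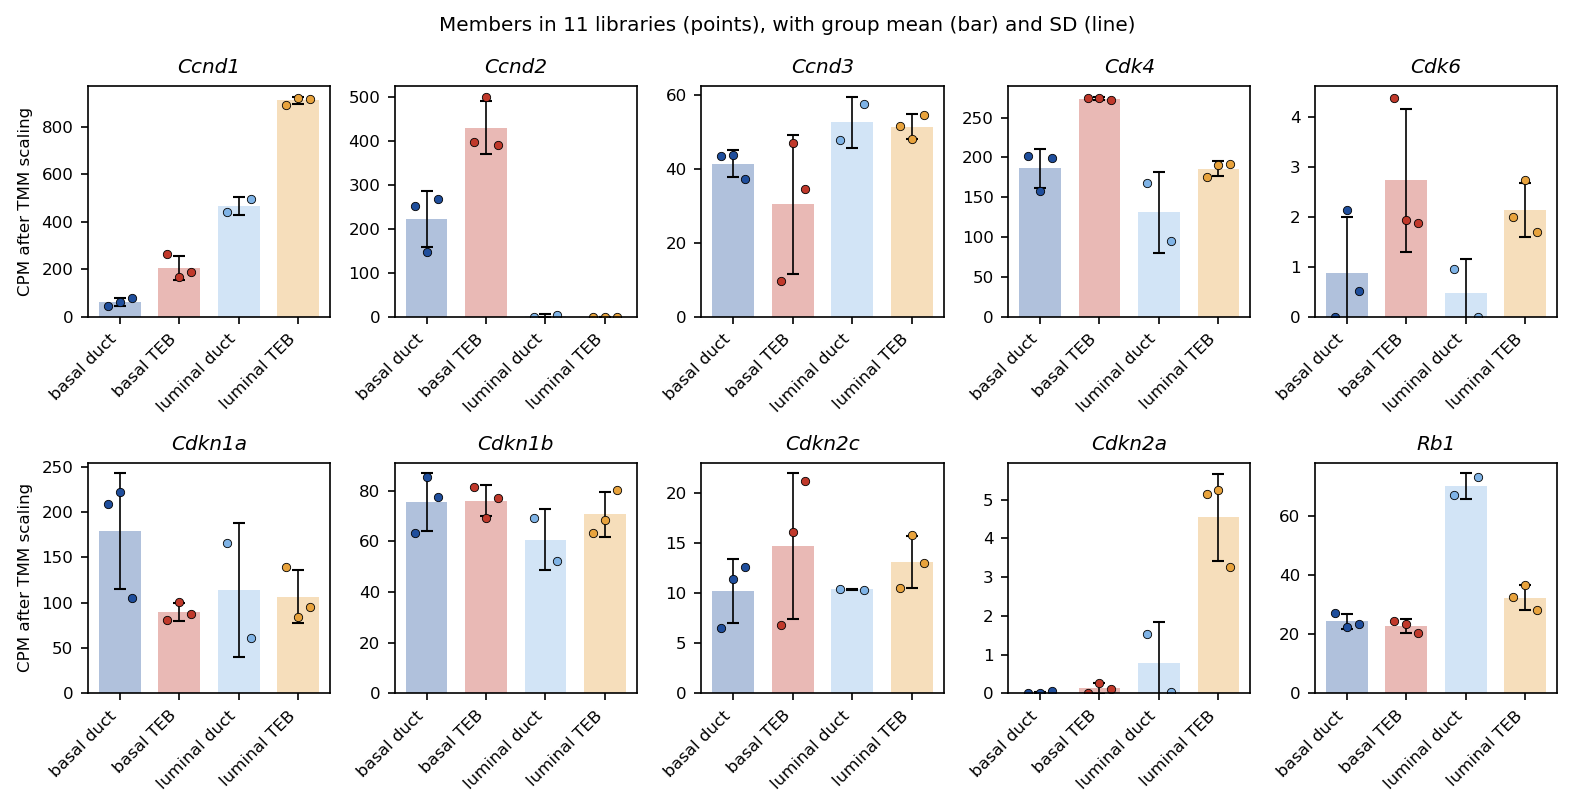
Levels of the 10 genes in CPM after TMM scaling, in 1 panel per gene with its own linear axis from 0. Points are libraries, bars are group means and lines are SDs (n = 3, and n = 2 in luminal duct). Ccnd1 ascends from basal duct (46.5 to 77.8 CPM) to luminal TEB (894.3 to 920.1 CPM), Ccnd2 is high in the basal groups, and Rb1 is highest in luminal duct.

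The makeup of the D cyclin pool was then described by dividing each level by the length of the gene, as levels of different genes can be compared only in this way. Errors are SDs over 3 libraries, or over 2 for luminal duct. The 3 D cyclins together amounted to 73.2 ± 10.9 CPM per kb for basal duct and 142 ± 9.47 for basal TEB. The sums were 147 ± 13.8 for luminal duct and 263 ± 4.07 for luminal TEB. In the luminal groups Ccnd1 made up most of this pool, with 83.9% ± 0.979 in ducts and 91.3% ± 0.525 in TEBs. In the basal groups Ccnd2 was the largest component, with 51.8% ± 8.79 in ducts and 52.1% ± 4.49 in TEBs. The share of Ccnd1 in basal cells was 22.6% ± 5.57 in ducts and 38.5% ± 9.76 in TEBs, with the libraries of TEBs (29.3% to 48.7%) above those of ducts (16.3% to 26.9%). Ccnd3 made up 25.6% ± 5.79 in basal duct and 9.40% ± 5.61 in basal TEB. Counted by reads without the length scaling, Ccnd2 took 67.2% and 64.2% of the pool in basal duct and basal TEB, and Ccnd1 took 89.5% and 94.6% in luminal duct and luminal TEB. By reads, the Ccnd1 shares of basal duct and basal TEB overlapped, with 24.7% in basal duct replicate 2 and 23.6% in basal TEB replicate 2. No test was made on these shares.

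**Figure D2:**
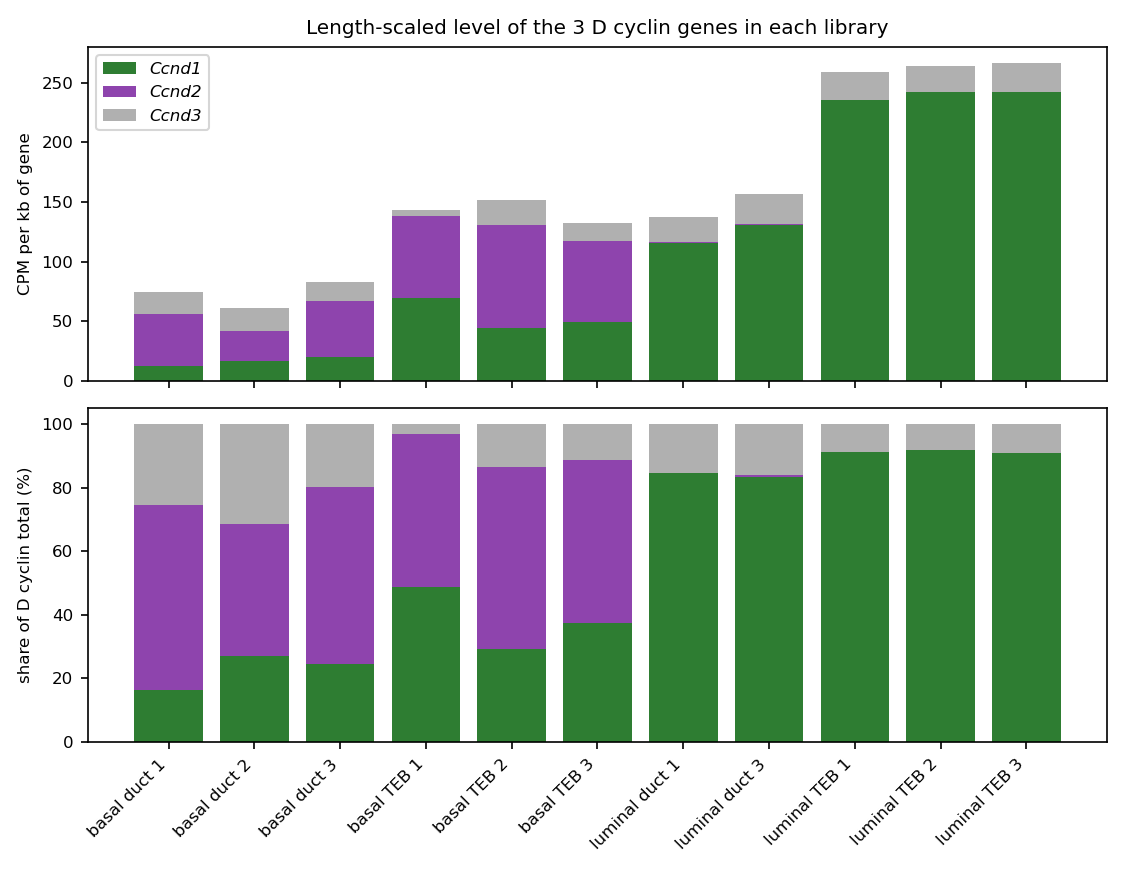
Level of the D cyclin genes in each of the 11 libraries, in CPM per kb of gene (top), and as the share of their sum in percent (bottom). Each bar is 1 library. Ccnd2 accounts for 41.7% to 58.0% of the pool in the basal libraries and for at most 0.587% in the luminal ones, and the sum is largest in luminal TEB (258 to 266 CPM per kb).

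Cdk4, a catalytic partner of the D cyclins, was abundant in every group. Basal duct had 202.0, 157.5 and 199.2 CPM and basal TEB had 274.9, 274.9 and 271.5 CPM. Luminal duct had 167.3 and 95.3 CPM and luminal TEB had 175.3, 190.1 and 191.8 CPM. In each cell type the TEB libraries lay above the duct libraries, but the log2 fold changes of 0.56 (SE 0.200, FDR = 0.236) in basal and 0.50 (SE 0.227, FDR = 0.298) in luminal cells did not pass in edgeR. Without luminal duct replicate 1, whose level was the higher of its group, the luminal value was 0.96 (FDR = 0.0219). Basal TEB libraries also lay above luminal TEB libraries, by a log2 fold change of 0.56 that was close to the threshold (SE 0.200, 95% interval 0.12 to 1.00, FDR = 0.0616). That difference passed in 8 of 21 alternative fits, among them DESeq2 (adjusted p = 0.0238), limma voom (adjusted p = 0.0251) and the likelihood ratio test (FDR = 0.0466). The log2 fold change stayed at 0.56 without either luminal duct library. Without composition normalization it was 0.14 (FDR = 0.800). Relative to the median of all genes it was then 0.49, against 0.52 in the fit with TMM. In ducts the basal and luminal libraries overlapped, and the log2 fold change of 0.50 did not pass (FDR = 0.136). It was 0.97 (FDR = 0.00739) without luminal duct replicate 1.

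Cdk6, the other kinase of the D cyclins, was counted at low levels. It reached at most 4.39 CPM, in basal TEB replicate 1, and had 0 counts in basal duct replicate 1 and in luminal duct replicate 3, which allows up to 0.0599 and 0.123 CPM there. Its other libraries had 2.13 and 0.513 CPM in basal duct, 1.94 and 1.88 in basal TEB, 0.956 in luminal duct and 2.00, 2.74 and 1.70 in luminal TEB. The basal TEB libraries alone spread from 1.88 to 4.39 CPM, and no comparison passed (FDR between 0.628 and 0.912 by edgeR). Per kb of gene, Cdk4 stood at 138, 203, 97.5 and 138 CPM in basal duct, basal TEB, luminal duct and luminal TEB, and Cdk6 at 0.357, 1.11, 0.194 and 0.868.

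Cdkn1a, the p21 gene, varied widely between libraries of 1 group. Its level was 208.5, 222.4 and 105.5 CPM in basal duct and 81.1, 100.8 and 87.9 CPM in basal TEB. It was 166.0 and 61.5 CPM in luminal duct and 139.6, 84.4 and 95.2 CPM in luminal TEB. The basal TEB libraries were all below the basal duct libraries, with 105.5 against 100.8 CPM as the nearest values. The log2 fold change of -0.99 (SE 0.362, 95% interval -1.78 to -0.20) did not pass (FDR = 0.243, edgeR). The luminal groups overlapped (log2 fold change -0.10, FDR = 0.942). Between basal and luminal cells the log2 fold change was 0.65 in ducts (FDR = 0.279) and -0.24 in TEBs (FDR = 0.680), and the value for ducts rose to 1.54 (FDR = 0.0274) without luminal duct replicate 1.

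Cdkn1b, which encodes p27, had overlapping levels in the 4 groups. Its level was 63.1, 85.5 and 77.5 CPM in basal duct, 81.4, 69.4 and 77.2 in basal TEB, 69.1 and 52.2 in luminal duct and 63.1, 68.5 and 80.2 in luminal TEB. No comparison passed. The log2 fold change of TEBs against ducts was 0.01 in basal cells, with a 95% interval of -0.39 to 0.41 (FDR = 0.998), and 0.22 in luminal cells, with an interval of -0.23 to 0.67 (FDR = 0.625). Under several other scalings the sign of the basal value was negative.

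The third member of the Cip/Kip family, Cdkn1c (p57), was taken from a list of related CDK inhibitors with Cdkn2b and Cdkn2d. It had 15.3, 36.4 and 58.2 CPM in basal duct and 75.8, 84.5 and 121 CPM in basal TEB, against 0.114 and 3.00 in luminal duct and 0.807, 0.705 and 0.771 in luminal TEB. Like Ccnd2, it was higher in basal than in luminal cells, with log2 fold changes of 4.63 (SE 0.973, FDR = 0.00460) in ducts and 6.94 (SE 0.898, FDR = 0.000118) in TEBs. Its basal TEB libraries lay above its basal duct libraries without passing the test. Cdkn1c is an imprinted gene that restrains growth.

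Cdkn2c, the INK4 inhibitor p18Ink4c, had a low level that overlapped between the basal groups. Basal duct had 6.56, 11.4 and 12.6 CPM, basal TEB had 6.87, 16.1 and 21.2, luminal duct had 10.4 and 10.4, and luminal TEB had 10.6, 15.8 and 13.1. No comparison passed (FDR between 0.648 and 0.983), and the 95% interval of the log2 fold change of TEBs against ducts was -0.47 to 1.53 in basal and -0.79 to 1.46 in luminal cells.

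Cdkn2a was detected almost only in luminal libraries. Its counts were 229, 275 and 169 in luminal TEB, or 5.13, 5.24 and 3.26 CPM, and 67 and 1 in luminal duct, or 1.52 and 0.0411 CPM. Basal libraries had between 0 and 13 counts, at most 0.274 CPM. The luminal TEB libraries were thus above all others, and the luminal duct replicates were far apart. Basal against luminal cells did not pass in edgeR (FDR = 0.0760 in ducts and 0.0664 in TEBs), and it was past the threshold in some alternatives, with adjusted p-values of 0.0159 in ducts and 0.00392 in TEBs by DESeq2. No support is drawn from those values, because Cdkn2a met the filter mostly in the group where it is high. In ducts single libraries decided the side of the threshold (FDR = 0.0398 without luminal duct replicate 3 and 0.0415 without basal TEB replicate 1), as in TEBs (FDR = 0.0421 and 0.0356 without luminal duct replicate 1 and 3). Luminal TEB against luminal duct had an FDR of 0.522, and whether the reads came from p16Ink4a or p19Arf transcripts cannot be read from the gene counts.

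Cdkn2b, the neighbour of Cdkn2a and the gene of p15Ink4b, had 7.51, 7.07 and 4.39 CPM in luminal TEB and 0.774 and 0.781 CPM in luminal duct. It had 0 counts in the 3 basal duct libraries and in basal TEB replicate 1, and 0.821 and 0.672 CPM in the other basal TEB libraries. As with Cdkn2a, the luminal TEB libraries held the highest values. Basal cells of ducts were lower than luminal cells (FDR = 0.0158, edgeR), a call that rests on 34 and 19 counts in the luminal duct libraries. Basal against luminal cells of TEBs did not pass (FDR = 0.0970), and neither did TEBs against ducts in luminal cells (FDR = 0.385).

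Rb1, which encodes the pocket protein on which the D cyclin kinases act, was highest in luminal cells of ducts. Its level was 67.3 and 73.3 CPM in luminal duct, 32.6, 36.7 and 28.1 in luminal TEB, 27.1, 22.4 and 23.6 in basal duct and 24.6, 23.6 and 20.3 in basal TEB. Luminal duct thus lay above every other library, luminal TEB lay above both basal groups, and the basal groups overlapped. In luminal cells Rb1 was 2.16-fold lower in TEBs than in ducts (log2 fold change -1.11, SE 0.218, 95% interval -1.59 to -0.64, FDR = 0.0324, edgeR), the only one of the 10 genes to pass in a comparison where 1.41% of all genes passed. In ducts it was 2.88-fold lower in basal than in luminal cells (log2 fold change -1.53, SE 0.219, FDR = 0.000337). In TEBs the log2 fold change was -0.51 (SE 0.199, FDR = 0.0863), and -0.93 (FDR = 0.0383) without composition normalization. In basal cells TEBs and ducts gave a log2 fold change of -0.09, with a 95% interval of -0.53 to 0.34 (FDR = 0.888).

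The luminal call of Rb1 depended on single libraries. Leaving out basal duct replicate 3, luminal duct replicate 3, or luminal TEB replicate 1, 2 or 3 gave FDRs of 0.0523, 0.104, 0.116, 0.0856 and 0.159, with log2 fold changes between -1.22 and -1.04 over all libraries left out in turn. The call was also lost with both libraries of high mitochondrial share left out (log2 fold change -1.04, FDR = 0.0547), with the replicate number as a block (log2 fold change -1.15, FDR = 0.0737) and without composition normalization (log2 fold change -0.72, FDR = 0.311). Without that normalization the median of all genes in this comparison moved up by 0.38, and relative to the median Rb1 was at -1.14, against -1.16 in the fit with TMM. Lpar6, a receptor gene within the span of Rb1, had 55.8 and 89.6 CPM in luminal duct and 30.1, 37.0 and 38.5 CPM in luminal TEB, a log2 fold change of -1.04 (FDR = 0.0760). Between basal and luminal cells of TEBs Lpar6 differed in the other direction from Rb1, with a log2 fold change of 0.98 (FDR = 0.010).

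**Figure D3:**
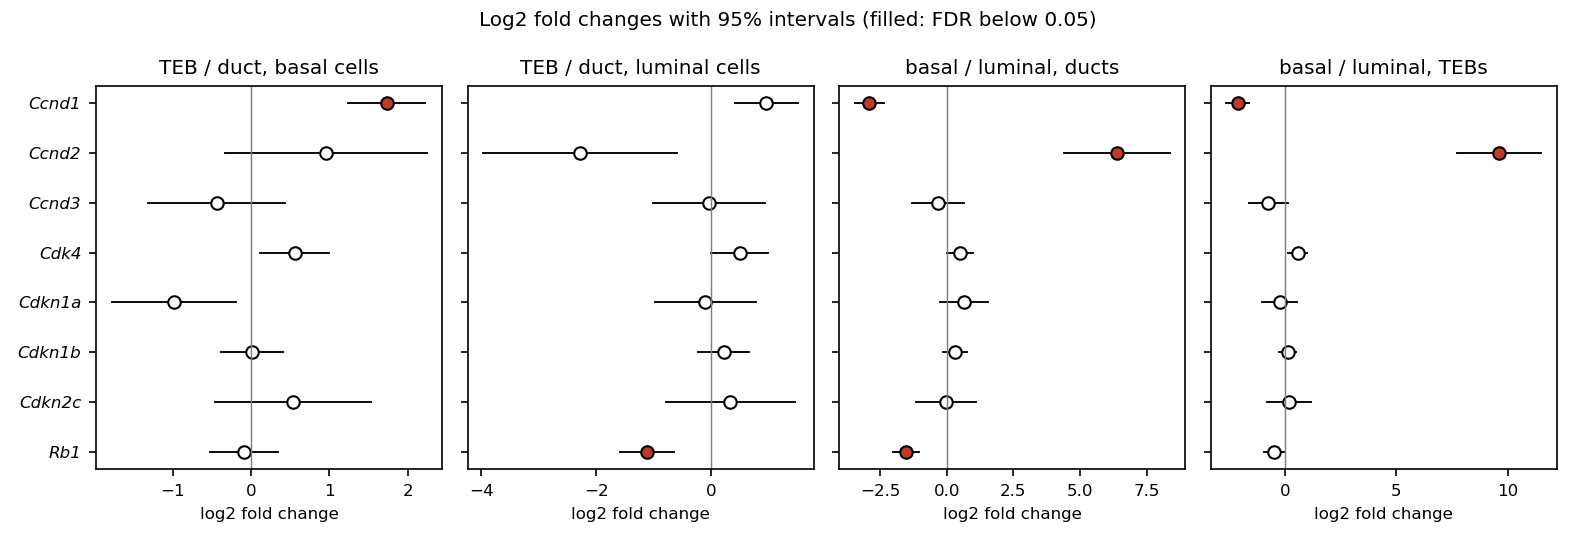
Log2 fold change with its 95% interval for 8 of the genes in the 4 comparisons, from edgeR's model of the 4 groups, with filled points at an FDR below 0.05 and a different horizontal axis in each panel. Cdk6 and Cdkn2a are left out because libraries of 0 or few counts give them very wide intervals. Ccnd1 is filled in all panels but the luminal comparison of TEBs with ducts, where Rb1 is filled.

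Over the 10 genes, 1 passed in basal TEB against basal duct, 1 in luminal TEB against luminal duct, 3 in ducts between the cell types (Ccnd1, Ccnd2 and Rb1) and 2 in TEBs between the cell types (Ccnd1 and Ccnd2). Of all genes tested, 22.3% passed between the cell types in ducts and 25.1% in TEBs, so the members' numbers were near the background in those comparisons. Groups did not overlap for 4 and 6 of the 10 genes between TEBs and ducts of basal and luminal cells, where 20.8% and 43.7% of all genes did not overlap. For the comparisons of cell types the numbers were 4 in ducts and 6 in TEBs, where 46% and 49.8% of all genes did not overlap. The median log2 fold change of the 10 genes was 0.54 in basal and 0.28 in luminal cells for TEBs against ducts, and that of all genes was -0.03 and 0.04.

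Whether the TEB difference itself depended on the cell type was tested by the interaction, in which 0 of the 10 genes passed in edgeR and 0.443% of all genes did. Ccnd1, Ccnd2 and Rb1 had the lowest FDRs of the 10 genes. For Ccnd1 the log2 difference of basal minus luminal change was 0.77 (SE 0.328, FDR = 0.304), so the passing call in basal cells and the missed call in luminal cells were not shown to differ. For Rb1 it was 1.02 (SE 0.296, 95% interval 0.37 to 1.67, FDR = 0.165), and it passed with DESeq2 alone (adjusted p = 0.0321). For Ccnd2 it was 3.23 (SE 0.974, FDR = 0.176), passed with the likelihood ratio test (FDR = 0.0289), and was -0.04 without luminal duct replicate 3. With limma voom 0 members passed.

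Compared per kb of gene, the order of the members changed with the cell type. In luminal TEB Ccnd1 (240 CPM per kb) and Cdk4 (138) led, followed by Cdkn1a (52.5), Cdkn1b (29.3), Ccnd3 (22.7), Cdkn2c (11.9) and Rb1 (7.02). In luminal duct the same pair led with 123 and 97.5 CPM per kb. In basal duct the order was Cdk4 (138), Cdkn1a (88.3), Ccnd2 (38.4), Cdkn1b (31.3), Ccnd3 (18.3) and Ccnd1 (16.4), and in basal TEB it was Cdk4 (203), Ccnd2 (74.4), Ccnd1 (54.6), Cdkn1a (44.4) and Cdkn1b (31.6). Cdkn1a thus stood above each D cyclin in basal duct, and below Ccnd1 and Ccnd2 in basal TEB by the means. In luminal cells, Cdkn1a stood below Ccnd1 in both structures. Neighbours in these orders were not tested against each other.

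Genes that act directly after the D cyclin kinases were examined as lists. Of all genes tested, 0.167% passed as higher and 1.16% as lower in TEBs of basal cells, and 0.639% and 0.771% in TEBs of luminal cells. In basal against luminal cells 12.6% and 9.71% passed as higher and lower in ducts, and 13.2% and 11.8% in TEBs. Of the 12 pocket protein and E2F genes, 0 passed between TEBs and ducts in either cell type. Their median log2 fold change was 0.49 in basal cells and 0.78 in luminal cells, with 10 and 11 of 12 values positive. In ducts 2 passed between cell types. The DP partner Tfdp2 was higher in basal cells (91.9 ± 4.11 against 48.6 ± 11.4 CPM, SD, n = 3 and 2, FDR = 0.0231), and the activator E2f2 was lower (1.79 ± 2.03 against 9.50 ± 3.84 CPM, FDR = 0.0452). Of the 6 genes of cyclin E, cyclin A and CDK2 activity, 0 passed between TEBs and ducts. Ccne1, the cyclin E1 gene, was higher in basal than in luminal cells of ducts (21.0 ± 3.23 against 6.12 ± 2.13 CPM, FDR = 0.00411), and Cdc25a, a phosphatase that activates CDK2, was higher in basal than in luminal cells of TEBs (46.0 ± 5.33 against 21.1 ± 2.12 CPM, SD, n = 3 each, FDR = 0.0128).

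Of 8 genes for CDK activation and the turnover of cyclins and inhibitors, 0 passed between TEBs and ducts and 1 passed in each comparison of cell types. Mnat1 and Cdk7 both encode parts of the CDK-activating kinase. Mnat1 was lower in basal than in luminal cells of ducts (21.1 ± 1.87 against 38.9 ± 4.20 CPM, FDR = 0.0300), and Cdk7 was higher in basal than in luminal cells of TEBs (61.3 ± 5.49 against 35.5 ± 1.44 CPM, FDR = 0.00807).

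The p53 list was of interest because of the site upstream of Cdkn1a. Of its 10 genes, 0 passed between TEBs and ducts, with medians of 0.13 in basal and 0.09 in luminal cells. Between cell types the members went in both directions, with 2 higher and 3 lower in basal cells of ducts, and 2 higher and 2 lower in TEBs. Phlda3, an inhibitor of AKT, was higher in basal cells of both structures (137 ± 17.1 against 20.8 ± 6.50 CPM in ducts, FDR = 2.93e-05, and 147 ± 9.86 against 18.7 ± 4.98 in TEBs, FDR = 3.03e-06). Ccng1, the cyclin G1 gene, was lower in basal cells of both (41.5 ± 12.5 against 121 ± 64.5 CPM in ducts, FDR = 0.0120, and 47.7 ± 15.8 against 117 ± 29.5 in TEBs, FDR = 0.0169). The apoptosis gene Bax was lower in basal cells of ducts (39.9 ± 7.0 against 98.2 ± 33.6 CPM, FDR = 0.00263). Zmat3 was lower in basal cells of ducts (FDR = 0.0316) and of TEBs (FDR = 0.0390), and Mdm2, the ligase for p53, was higher in basal cells of TEBs (131 ± 15 against 84.1 ± 7.81 CPM, FDR = 0.0300).

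Proliferation genes, on which the pathway acts, had a positive log2 fold change in TEBs for 18 of 18 genes in each cell type, with medians of 0.70 in basal and 1.40 in luminal cells, of which 1 and 4 passed. In basal cells Birc5, a gene of cell division, rose 2.80-fold, to 28.1 ± 3.78 CPM (SD, n = 3, FDR = 0.0415). In luminal cells the replication helicase genes Mcm3, Mcm5 and Mcm6 and the mitotic kinase gene Plk1 rose by log2 fold changes between 1.45 and 1.93 (FDR between 0.0269 and 0.0487). The summed level of the 18 genes was 656 to 1452 CPM in basal duct, 1613 to 2262 in basal TEB, 923 and 1007 in luminal duct and 2159 to 2483 in luminal TEB, with 656 CPM in basal duct replicate 2 as the lowest. It therefore moved with Ccnd1 between TEBs and ducts, and its part in that result was not tested. The summed level overlapped between basal and luminal cells of TEBs, where Ccnd1 differed 4.40-fold. There Mcm2 (51.3 ± 12.9 against 109 ± 12.2 CPM, FDR = 0.0478) and Mcm6 (125 ± 20.6 against 334 ± 33.8 CPM, FDR = 0.000942) were lower in basal cells and 0 genes of the list were higher.

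The immediate early genes, which mitogens and also tissue dissociation induce, went the other way from Ccnd1 in basal cells. Of 12 genes, 6 were lower in basal TEB than in basal duct (among them Dusp1, Fosb, Atf3 and Fos) and 0 of the 12 values were positive, with a median of -1.17. Dusp1, a phosphatase that turns off MAP kinases, went from 365 ± 59.8 to 70.7 ± 33.2 CPM (log2 fold change -2.37, FDR = 0.00330), and Fosb from 2329 ± 300 to 780 ± 110 CPM (log2 fold change -1.58, FDR = 0.00585). In luminal cells 0 of 12 passed. Myc was higher in basal than in luminal cells of ducts (420 ± 97.6 against 77.7 ± 16.2 CPM, FDR = 0.000104) and of TEBs (208 ± 28.4 against 75.1 ± 21.5 CPM, FDR = 0.000803). Between basal and luminal cells 6 of the 12 were higher and 1 was lower in ducts, and 4 were higher and 3 lower in TEBs. In the interaction 0 genes of any of the 7 lists passed in edgeR.

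**Figure D4:**
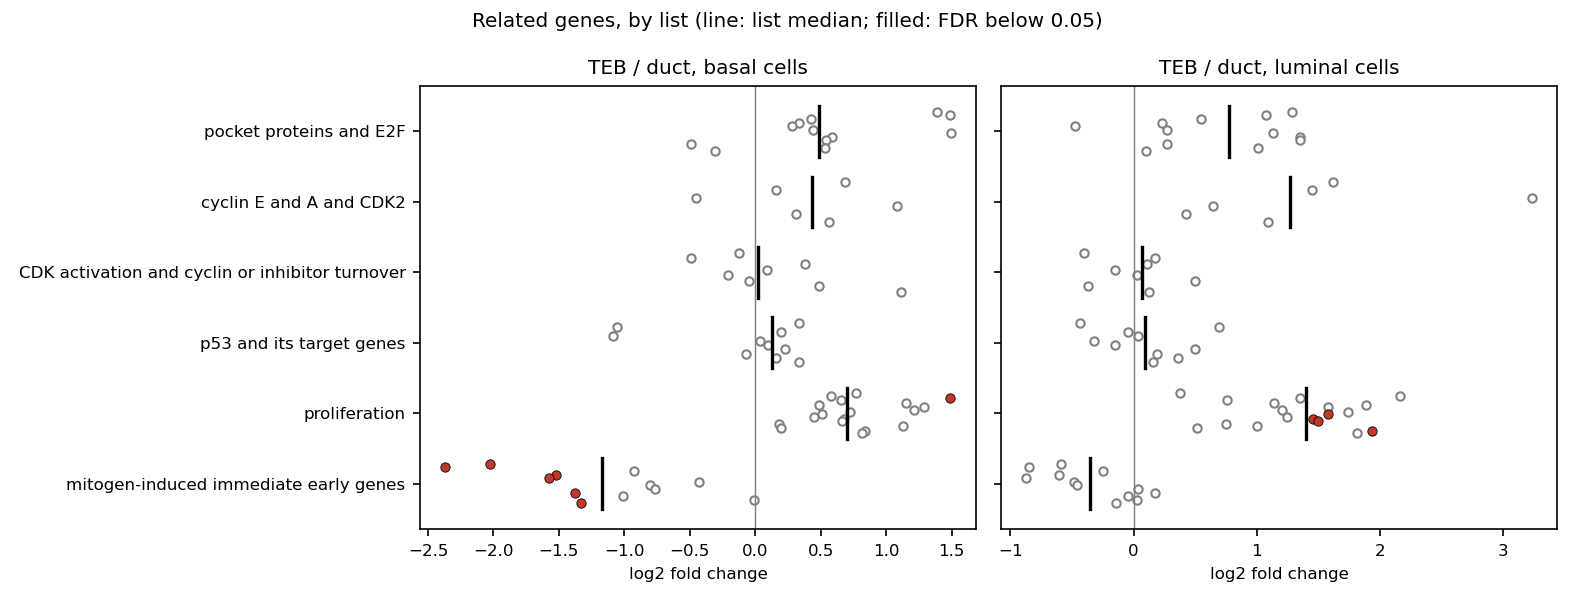
Log2 fold change of TEBs against ducts for the genes of 6 lists, in basal cells (left) and luminal cells (right), 1 point per gene, on horizontal axes of different range. Filled points passed an FDR of 0.05 and black lines are list medians. The 18 proliferation genes are all above 0 in both panels, and 6 of the 12 immediate early genes are filled below 0 in basal cells.

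Genes with the pattern most like that of a member over the 11 libraries were sought among 7707 candidates, by the root mean square difference of log2 CPM after the mean of each gene was removed. For Ccnd1 these were Fam210b (0.377), Lad1 (0.380) and Mcf2l (0.518), against a median of 1.54 over candidates. For Ccnd2 they were Igfbp4 (0.446), Col4a2 (0.734) and Vcan (0.773), against a median of 4.43. Igfbp4 encodes a binding protein of insulin-like growth factors, and Col4a2 and Vcan encode matrix proteins. For Ccnd3 they were Efcab14 (0.163), Rpe (0.206) and Gtf2h3 (0.229), and for Cdkn1a they were Sfn (0.247), Clic4 (0.299) and Esyt2 (0.302), against medians of 0.797 and 0.732. These are descriptions over libraries that share group, depth and mitochondrial share.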

How the data were processed

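RNA-seq libraries had been prepared by the authors from sorted basal and luminal cells with a kit that does not mark strand and sequenced as 80 bp paired-end reads. The authors aligned the reads to mm10 and counted them by Entrez gene with Rsubread and the RefSeq annotation built into it. What they deposited are raw whole-number counts of read pairs. The authors left out 1 luminal duct sample that had few cells. The Rsubread version is not given in the sources used here. The table of the series equalled the separate tables of all 11 libraries, and 0 columns were left unused. Totals ran from 27989137 to 49221436 counts, and symbols were found for 93.0% of genes.

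Counts were analysed with edgeR 4.0.16 under R 4.3.3. Low genes were removed by filterByExpr at its minimum count of 10 and minimum total of 15, library sizes were scaled by TMM, and 4 groups were fitted in 1 model with the quasi-likelihood test and Benjamini-Hochberg adjustment over 17370 genes at an FDR of 0.05. The common biological coefficient of variation was 0.704. The SE was obtained by dividing the size of the log2 fold change by the root of its F statistic. Levels are CPM after TMM scaling, log2 CPM was taken with a prior count of 2, and levels per kb use the gene length in the deposited count tables. Where a library had 0 counts the upper limit was set at 3 counts, for counting error alone.

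Alternatives were DESeq2 1.42.0, limma 3.58.1 (voom), the likelihood ratio test, other scalings, no filter, removal of mitochondrial genes, 2 groups only, a replicate block, an FDR of 0.01 and each library left out in turn. Leaving out both libraries of high mitochondrial share was chosen after seeing the data. Replicates of each group differed by more than sampling noise. Scripts were tested on simulated counts. All 10 members were described, and from each list at most 4 genes passing the threshold in a comparison, by lowest FDR, were named. Lpar6, LTO1 and Cdkn2b were named as neighbours of members. Similar patterns were sought for the members stated, among genes whose mean log2 CPM reached 4. The members and the 7 lists were chosen with earlier results of these data known.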

Additional observations from a re-analysis of the deposited data

How the results depend on the processing

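The numbers of passing members depended on the test and on single libraries. For basal TEB against basal duct the number was 1, and 2 with limma voom (Ccnd1 and Ccnd2). It stayed at 1 to 1 with each library left out. For luminal TEB against luminal duct it was 1, and 0 without composition normalization, with the replicate block, at an FDR of 0.01 or with both libraries of high mitochondrial share left out, 2 with DESeq2, limma voom or 2 groups only, and 3 with the likelihood ratio test, with 0 to 3 over the libraries left out. For ducts it was 3, and 4 with DESeq2, the likelihood ratio test or both libraries of high mitochondrial share left out (Cdkn2a added), with 3 to 5 over the libraries left out (5 without luminal duct replicate 1). For TEBs it was 2, and 4 with DESeq2, limma voom, the likelihood ratio test, 2 groups only or both libraries of high mitochondrial share left out (Cdk4 and Cdkn2a added), with 2 to 4 over the libraries left out. For the interaction it was 0, and 1 with DESeq2 or the likelihood ratio test, with 0 to 1 over the libraries left out (1 without luminal duct replicate 1). The cause of these changes was not tested.

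Of 732 log2 fold changes of members under alternatives, 675 kept their sign and side of the threshold, 26 changed sign, 8 lost and 23 gained a call. These numbers leave out Cdk6 and Cdkn2a, and of the interaction they hold only Ccnd1, Ccnd2 and Rb1. Cdkn1b in basal TEB against basal duct turned to -0.0280 with DESeq2 size factors, -0.0282 with DESeq2, -0.0311 with mitochondrial genes removed and -0.0313 with both libraries of high mitochondrial share left out, and to -0.15 without composition normalization. Without composition normalization, Ccnd3 and Cdkn1a in luminal TEB against luminal duct turned to 0.37 and 0.22, Cdkn2c in ducts to 0.0873, and Cdkn1b and Cdkn2c between the cell types of TEBs to -0.33 and -0.16. The median of all genes then shifted by -0.13, 0.38, 0.11, -0.39 and -0.50 (basal, luminal, ducts, TEBs, interaction), and the share of passing genes that were higher moved from 12.6% to 1.75% (basal), 52.8% to 37.2% (TEBs) and 18.2% to 6.67% (interaction). With both libraries of high mitochondrial share left out, Ccnd2 and Ccnd3 in luminal TEB against luminal duct turned to 1.01 and 0.13. Leaving out 1 library at a time gave -0.13 to 0.11 for Cdkn1b (basal), -3.27 to 0.99 for Ccnd2, -0.16 to 0.11 for Ccnd3 and -0.64 to 0.79 for Cdkn1a (luminal), -0.21 to 0.21 for Cdkn2c (ducts), -0.19 to 0.50 for Cdkn2c and -0.40 to 0.0027 for Cdkn1a (TEBs), and -0.0394 to 4.22 for Ccnd2 (interaction).

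The number of all genes passing ranged under alternatives from 57 to 874 (230 in the fit reported, basal), 10 to 1305 (245, luminal), 2318 to 5147 (3878, ducts), 2745 to 5391 (4354, TEBs) and 7 to 753 (77, interaction). Deviations from the group means correlated at -0.07 to 0.16 between samples with the same replicate number, with 4 of 15 pairs over 0.1. Between samples with different numbers they correlated at -0.16 to 0.14, with 2 of 30 pairs over 0.1. The labels do not say whether a replicate number marks a shared pool of mice. With the replicate block 0 members passed in luminal TEB against luminal duct, where Rb1 had a log2 fold change of -1.15 and an FDR of 0.0737, and no other member changed its call. Luminal duct rests on 2 libraries that differ in mitochondrial share and in markers of other cells. Cdk6, Cdkn2a, Cdkn2b and luminal Ccnd2 rest on few counts.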
